A study of Mus musculus with 6 samples.

Results

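The genes described here are 10 that turn ammonia into urea in liver mitochondria and cytosol, chosen by symbol: Cps1, Otc, Ass1, Asl, Arg1, Nags, Slc25a15, Slc25a13, Gls2 and Glud1. Each has its own row in a table of 25230 genes, and 9 of the 10 were abundant enough to be among the 12506 genes tested. The libraries were made from 6 regions of liver of male C57BL/6 mice, cut out of fixed and paraffin-embedded serial sections with an automated tissue dissection instrument. There were 3 small lesion regions, which the submitters label as tumour and describe by their stacked glycogen, and 3 regions of normal adjacent tissue, all labelled 7 months. The mice of both groups had been given DEN (diethylnitrosamine, which causes liver tumours) in an intraperitoneal dose of 25 mg/kg at 14 days of age. The normal regions are therefore carcinogen-treated liver, not untreated liver. The question is how transcripts of the nitrogen disposal route differ between early glycogen-storing lesions and the liver beside them. The design text calls the normal regions corresponding, but the labels do not say which regions share a mouse, so p-values measure only the spread between these samples.

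The urea cycle is the main route by which mammals detoxify ammonia, and in the liver it runs chiefly in the hepatocytes around the portal veins. Ammonia released in mitochondria from glutamine and glutamate is fixed as carbamoyl phosphate, which is joined to ornithine to give citrulline. Citrulline leaves for the cytosol, takes up a nitrogen from aspartate, is cleaved to arginine, and arginine is split into urea and ornithine, which returns to the mitochondrion. Ammonia that escapes this route is captured as glutamine by a narrow band of hepatocytes around the central veins.

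One step of the cycle could not be followed, and the coding sequence of its gene is nearly identical to part of another transcript. Ass1 encodes argininosuccinate synthase, which joins citrulline to aspartate, and is an abundant liver transcript. Its row held 1, 0 and 0 counts in lesions 1 to 3, against 0, 2 and 2 counts in normal regions 1 to 3, or 5 of 41467453 counts in all. These values are at or under a floor of 3 counts in a library, which corresponds to 0.420 to 0.439 CPM (counts scaled to a common library size) in lesions and 0.436 to 0.454 CPM in normal regions, so no fold change is given. Ass1 lies on chromosome 2 (31470270 to 31520670, GRCm38.p6), and Gm5424, which RefSeq annotates as a transcribed pseudogene, lies on chromosome 10 (62071022 to 62072571). Of the 1236 coding bases of the Ass1 transcript, 1230 are identical in the Gm5424 transcript of GENCODE M21, which is 99.5% identity. The 6 differences, counted from 1 at the A of the start codon with the Ass1 base first, are T399C, T429C, A520T, G656C, T1011C and C1143T. The stretches below, from those GENCODE transcripts, cover coding bases 370 to 429 and are shown because they hold the first 2 of the differences, in capitals, in an otherwise identical run of 60 bases.
Ass1, bases 370 to 429: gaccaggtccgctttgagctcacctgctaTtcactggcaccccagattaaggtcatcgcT
Gm5424, bases 370 to 429: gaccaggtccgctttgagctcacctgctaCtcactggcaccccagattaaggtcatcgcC

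Identity of this kind runs along much of the Ass1 transcript. Of its 1647 windows of 50 bases, 911 (55.3%) also stand in the Gm5424 transcript, and of its 1597 windows of 100 bases, 622 (38.9%) do. The remaining windows of either length stand in no annotated transcript of another gene. The Gm5424 row held 0 counts in each of the 6 libraries. Some globin genes, looked at after the Ass1 values were seen, were also listed near 0. Hba-a1 had 1 count in normal region 3 and 0 in the other 5 libraries, and Hba-a2, Hbb-bs and Hbb-bt had 0 throughout. The globin sequences were not compared, and the reason for these values was not tested. How reads that map to several places were counted is not given in the sources used here, and its part in the Ass1 values was not tested. The Ass1 row is therefore not read as a level of the gene. Of the other 9 genes, Nags shares 396 of its 1979 windows of 50 bases with an antisense gene, Gm11586, Glud1 shares 8.17% with 2 other genes, and the remaining 7 share none with another annotated transcript.

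Among the 9 tested genes, 7 fell in the lesions, 0 rose and 2, Arg1 and Nags, did not pass (edgeR quasi-likelihood test, adjusted p under 0.05). Across all tested genes 18.4% were called lower and 18.7% higher. At an unadjusted p under 0.05, and by DESeq2, limma-voom and limma on log2 FPKM, the number of these genes called higher was also 0. In 7 of the 9, all 3 lesion libraries lay below all 3 normal libraries, against 24.0% of tested genes. The median log2 fold change of the 9 was -0.74, and that of all tested genes was 0.0031. In bulk regions such as these, fewer hepatocytes that express a gene and less RNA per hepatocyte cannot be told apart. Summed over the 10 rows, the CPM values, on library sizes scaled with TMM factors, were 4435, 4421 and 5020 in the lesions, against 7564, 8067 and 8058 in the normal regions. The sums did not overlap, and the lesion mean was 58.6% of the normal mean. Cps1 makes up most of the normal sum, and without it the sum was 2164 ± 216 CPM in lesions and 2900 ± 67.5 CPM in normal regions (SD, n = 3 each).

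**Figure D1:**
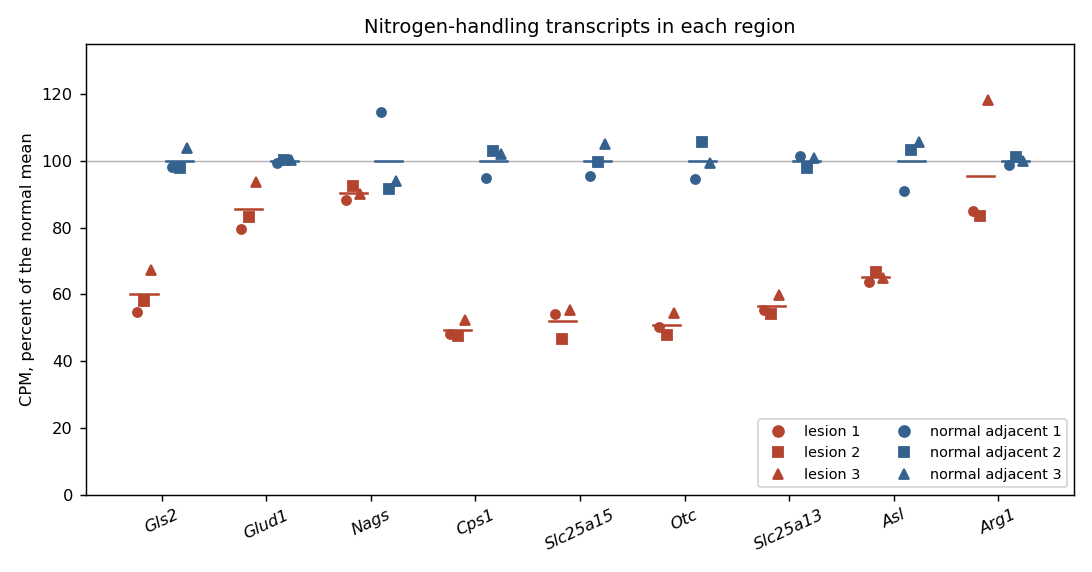
CPM of each tested gene in each library as a percentage of that gene's mean in the normal regions (vertical axis), ordered by role along the horizontal axis, with lesion points left of normal points and horizontal ticks at the means. Lesion values of Cps1, Otc and Slc25a15 sit near the middle of the scale, at means of 49.3%, 50.8% and 51.9%, while those of Arg1 and Nags run into the normal values.

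Supply of ammonia to the mitochondrion comes first. Gls2 encodes the liver glutaminase, which releases ammonia from glutamine next to the urea cycle (chromosome 10, 128194635 to 128210004). It had 159, 168 and 195 CPM in lesions 1 to 3, against 284, 283 and 301 CPM in normal regions 1 to 3. Every lesion was below every normal region, with lesion 3 the highest of the lesions. The fit gave a log2 fold change of -0.74 (SE 0.070) with an edgeR adjusted p of 9.31e-08. Gls2 overlaps Spryd4 on the opposite strand, and the strand setting of the counting is not given in the sources used here, so some reads of the overlap could be counted for either gene. Spryd4 has its own row, with 633 counts over the 6 libraries. Glud1 encodes glutamate dehydrogenase, which frees ammonia from glutamate (chromosome 14, 34310727 to 34345033). It had 628, 657 and 739 CPM in the lesions, against 785, 792 and 790 CPM in the normal regions. The groups did not overlap, but lesion 3 came close to the tight normal values. Glud1 had a log2 fold change of -0.23 with an SE of 0.061 and passed (edgeR adjusted p = 0.00634), but without lesion 1 it did not (log2 -0.17, edgeR adjusted p = 0.0629).

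The entry step is carried out by Cps1, carbamoyl phosphate synthetase, which fixes ammonia and is among the most abundant proteins of the liver mitochondrion (chromosome 1, 67122426 to 67231267). Cps1 had 2406, 2371 and 2608 CPM in the lesions, against 4739, 5142 and 5105 CPM in the normal regions. All lesions were close to one another and far below all normal regions. The lesion mean of 2461 ± 128 CPM was 49.3% of the normal mean of 4996 ± 223 CPM (SD, n = 3 each; log2 -1.02, SE 0.056, edgeR adjusted p = 2.14e-11). Cps1 works only when bound by N-acetylglutamate, which is made by the product of Nags (chromosome 11, 102145513 to 102149528). Nags had 39.8, 41.6 and 40.5 CPM in the lesions, against 51.5, 41.1 and 42.3 CPM in the normal regions. The groups overlapped, with normal region 1 standing above the other 5 libraries. Its log2 fold change of -0.15 (SE 0.095) did not pass (edgeR adjusted p = 0.243), and without normal region 1 it was -0.04. With libraries scaled by size alone Nags passed as lower (log2 -0.28, edgeR adjusted p = 0.0223).

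The steps that make citrulline and supply aspartate were also lower. Otc, ornithine transcarbamylase, joins carbamoyl phosphate to ornithine in the mitochondrial matrix (chromosome X, 10252230 to 10321024). It had 106, 101 and 115 CPM in the lesions, against 199.8, 223 and 209.8 CPM in the normal regions. No lesion reached any normal region, and the lesion mean was 50.8% of the normal mean (log2 -0.98, SE 0.068, edgeR adjusted p = 7.59e-10). Slc25a15 encodes the carrier that brings ornithine in and lets citrulline out (chromosome 8, 22375550 to 22398621). It had 131, 112 and 134 CPM in the lesions, against 230.1, 240.4 and 254 CPM in the normal regions. Here too the groups stood well apart, with lesion 2 the lowest, and the log2 difference was -0.95 with an SE of 0.070 (edgeR adjusted p = 2.18e-09). Slc25a13 encodes citrin, the aspartate and glutamate carrier that exports the aspartate used by argininosuccinate synthase (chromosome 6, 6041218 to 6217304). It had 95.3, 93.4 and 103 CPM in the lesions, against 175, 169 and 174 CPM in the normal regions. The values within each group were tight and did not overlap, and the log2 fold change of -0.83, with an SE of 0.065, passed (edgeR adjusted p = 4.58e-09).

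The cytosolic end of the cycle follows. Asl, argininosuccinate lyase, cleaves argininosuccinate to arginine and fumarate (chromosome 5, 130011258 to 130024381). It had 328, 343 and 333 CPM in the lesions, against 468, 531 and 544 CPM in the normal regions. The groups did not overlap, and the lesion mean was 65.1% of the normal mean (log2 -0.62, SE 0.062, edgeR adjusted p = 1.69e-07). Arg1, the liver arginase that releases urea (chromosome 10, 24915207 to 24927470), had 543, 533 and 754 CPM in the lesions, against 631, 646 and 637 CPM in the normal regions. Lesions 1 and 2 lay below all normal regions, while lesion 3 lay above them. The lesion mean was 609.8 ± 125 CPM and the normal mean 638 ± 7.71 CPM (SD, n = 3 each), and the difference did not pass (log2 -0.07, SE 0.145, edgeR adjusted p = 0.765). Without lesion 3, Arg1 passed as lower, with a log2 fold change of -0.25 (edgeR adjusted p = 7.97e-07), so that library decides its call.

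The authors' deposited table, whose columns are those of DESeq2, gave the same 7 genes as lower at an adjusted p under 0.05. Its adjusted p was 5.04e-48 for Cps1 and 0.0149 for Glud1 in the authors' deposited table, 0.737 for Arg1 and 0.482 for Nags, and none for Ass1.

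Lesion 3 differed most from the other lesions in Arg1. Relative to the normal mean, the log2 level of Arg1 was 0.24 in lesion 3, against -0.23 and -0.26 in lesions 1 and 2. For Asl and Nags, lesion 3 lay between the other lesions. It held the highest lesion value for 7 of the 9 tested genes, and for 6 of the 9 when libraries were scaled by size alone. Some margins were small, as for Slc25a15 at 134 CPM in lesion 3 and 131 CPM in lesion 1. The share of all tested genes that were highest in lesion 3 was not counted, so this is not read as a trait of these genes. Averaged over the 9, the log2 level relative to the normal mean was -0.67 in lesion 1, -0.68 in lesion 2 and -0.51 in lesion 3, against -0.02 to 0.019 in the normal regions. On the second principal component of all tested genes, lesion 3 was at -29.1, against 13.1 and 13.9 for lesions 1 and 2 and 0.0299 to 1.34 for the normal regions. Without lesion 3 the median log2 fold change of the 9 genes was -0.83, and 8 of them were called lower. Across all genes 2796 were then called lower, against 2296 with every library.

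Levels of different genes can be compared only per length, and for this the deposited FPKM values (fragment counts divided by gene length and by the authors' scaled library size) were used. In the lesions Cps1 had 428, 421 and 466 FPKM and Arg1 had 364, 357 and 507 FPKM, so that in lesion 3 arginase was listed above carbamoyl phosphate synthetase. In the normal regions the mean FPKM was 891 for Cps1 and 429 for Arg1, and the ranges of this pair did not overlap. Glud1 was above Asl in every lesion, at 197 to 233 FPKM for Glud1 and 178 to 186 FPKM for Asl, while in the normal regions Glud1 was below Asl at 246 to 249 against 254 to 296 FPKM. Further down the order were Gls2 with a mean of 69.2 FPKM in lesions and 115 FPKM in normal regions, Otc with 45.8 FPKM in lesions and 90.3 FPKM in normal regions, and Nags, the lowest, with 19.0 FPKM in lesions and 21.1 FPKM in normal regions. The carriers Slc25a15 and Slc25a13 overlapped in the lesions, at 29.4 to 35.1 and 29.6 to 32.9 FPKM, and stood apart in the normal regions, at 60.4 to 66.6 and 53.7 to 55.5 FPKM. Over the 3 normal libraries no neighbours in the order overlapped. Cps1 made up 30.6% ± 1.28 of the summed FPKM of the 10 genes in lesions and 40.6% ± 0.505 in normal regions, and Arg1 made up 28.2% ± 2.98 in lesions and 19.6% ± 0.473 in normal regions (SD, n = 3 each).

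**Figure D2:**
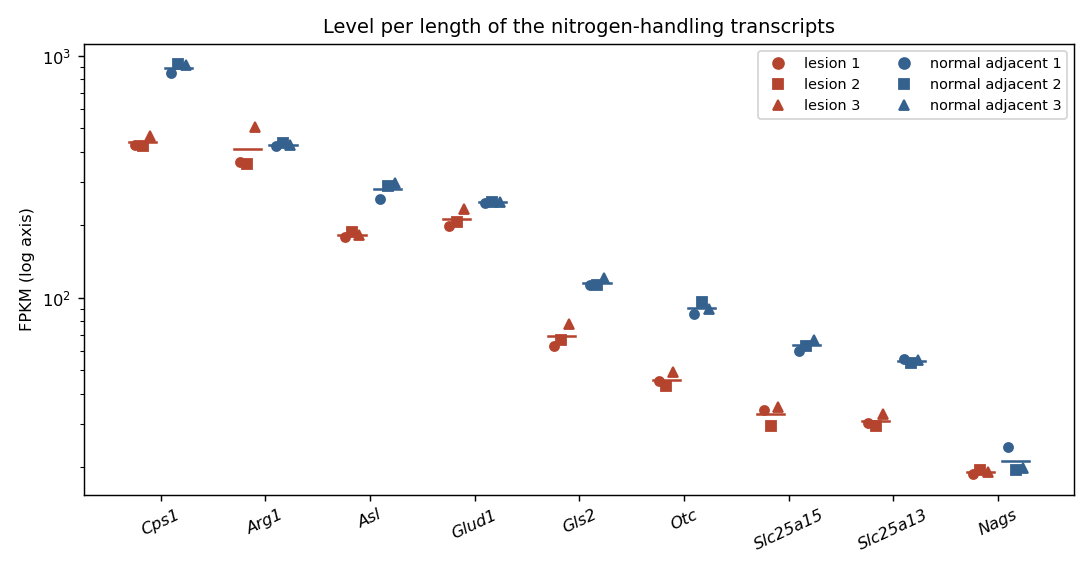
Deposited FPKM of each tested gene on a log axis (vertical), one point per library, lesion points left of normal points, with genes ordered by their mean in the normal regions. Cps1 and Arg1 nearly meet in the lesions, at 439 and 409 FPKM on average, and are far apart in the normal regions, at 891 and 429 FPKM.

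Ratios between neighbouring steps within a library do not depend on how libraries are scaled, and 7 such log2 ratios of FPKM were compared with an exact two-sided permutation test, which with 3 against 3 libraries cannot give a p below 0.1. None can therefore pass 0.05, and the smallest p adjusted over the 7 was 0.14. Otc over Cps1 was -3.26 ± 0.029 in lesions and -3.30 ± 0.040 in normal regions (SD, n = 3 each; exact permutation p = 0.2, adjusted p = 0.233). Slc25a15 over Otc was -0.48 ± 0.073 in lesions and -0.51 ± 0.083 in normal regions (exact permutation p = 0.7, adjusted p = 0.7). For this block of 3 genes the ratios overlapped between the groups. Arg1 over Asl was 1.15 ± 0.29 in lesions and 0.62 ± 0.10 in normal regions, with no overlap (exact permutation p = 0.1, adjusted p = 0.14). Gls2 over Glud1 was -1.62 ± 0.032 in lesions and -1.11 ± 0.048 in normal regions, and Nags over Cps1 was -4.53 ± 0.087 in lesions and -5.41 ± 0.243 in normal regions (exact permutation p = 0.1 and adjusted p = 0.14 for each). Gls2 thus lay lower relative to Glud1 in every lesion, and Nags lay higher relative to Cps1. The remaining pair of ratios, added after the data were seen, were Asl over Otc at 1.99 ± 0.115 in lesions and 1.63 ± 0.079 in normal regions, and Slc25a13 over Asl at -2.56 ± 0.094 in lesions and -2.35 ± 0.132 in normal regions (exact permutation p = 0.1 and adjusted p = 0.14 for each).

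**Figure D3:**
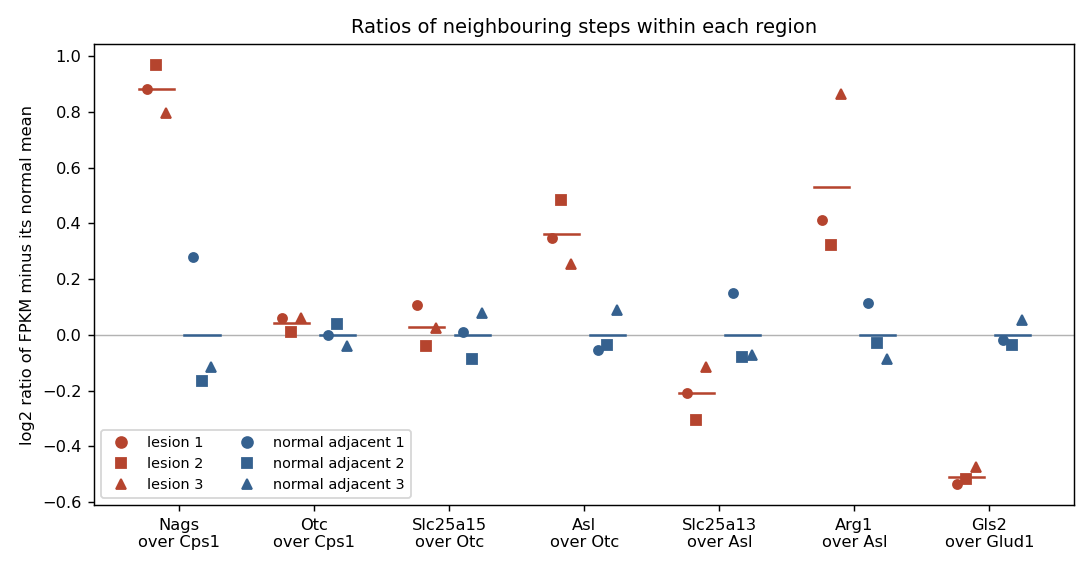
Log2 ratio of FPKM between pairs of genes in each library, minus the mean of that ratio in the normal regions (vertical axis), lesion points left of normal points. Lesion points for Otc over Cps1 and Slc25a15 over Otc overlap the range of the normal points, while Nags over Cps1 sits 0.88 higher and Gls2 over Glud1 0.51 lower on average.

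Enzymes of glutamate, glutamine and ammonia outside the 10 genes moved in both directions. Of 23 tested genes 11 fell, 4 rose and 8 did not pass (median log2 -0.13). The shares over all tested genes were 18.4% lower and 18.7% higher, so the number that rose is not read as a trait of this list. Oat, which converts ornithine to a precursor of glutamate and proline, had 185 ± 18.3 CPM in lesions and 500.2 ± 18.1 CPM in normal regions (SD, n = 3 each; log2 -1.44, SE 0.069, edgeR adjusted p = 3.39e-12). The cytosolic aspartate aminotransferase gene Got1 had a log2 fold change of -1.23 (edgeR adjusted p = 6.21e-12) and the histidase gene Hal one of -1.20. The proline dehydrogenase gene Prodh averaged 105 CPM in lesions and 209 CPM in normal regions. The glutamine synthetase gene Glul, which hepatocytes around the central vein use to capture the ammonia left over, averaged 55.5% of its normal level (log2 -0.85, SE 0.061, edgeR adjusted p = 1.29e-09). The scavenger of ammonia downstream of the cycle and the cycle's own ammonia source Gls2 were thus both lower in the lesions.

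Genes of the pathways that use aspartate or carbamoyl phosphate outside the cycle were mostly higher. Of 7 tested genes 4 rose, 1 fell and 2 did not pass (median log2 0.45), against 18.7% higher and 18.4% lower over all tested genes. Cad, the cytosolic enzyme that makes its own carbamoyl phosphate for pyrimidine synthesis, had 47.3, 48.6 and 42.3 CPM in the lesions, against 20.7, 21.6 and 23.1 CPM in the normal regions. All lesions were above all normal regions (log2 1.08, SE 0.099, edgeR adjusted p = 4.36e-08), while Cps1, which makes carbamoyl phosphate for urea, was lower in all of them. Asns, which turns aspartate into asparagine, had 29.2 ± 3.00 CPM in lesions and 8.51 ± 0.565 CPM in normal regions (SD, n = 3 each; log2 1.77, SE 0.132, edgeR adjusted p = 2.09e-09). The adenylosuccinate lyase gene Adsl and the pyrimidine gene Umps rose by 0.75 and 0.45 on the log2 scale, and the muscle-type adenylosuccinate synthase gene Adssl1 fell by 0.77. Of the listed genes whose products take up aspartate or carbamoyl phosphate directly, Cad and Asns rose, Adssl1 fell and Adss did not pass. Adsl, Umps and Dhodh act at other steps of these pathways.

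Other uses of arginine and ornithine gave no common direction. Of 11 tested genes 3 rose, 2 fell and 6 did not pass (median log2 -0.12), and with libraries scaled by size alone the number that fell was 4. With TMM scaling the shares over all tested genes were 18.7% higher and 18.4% lower. Scaling by size alone raised the lower calls across all genes from 2296 to 3615. Gamt, which methylates guanidinoacetate to creatine, rose by 0.70, and Srm, the spermidine synthase gene, by 0.79 on the log2 scale (edgeR adjusted p = 2.24e-07 for Gamt and 2.15e-06 for Srm). Nos3, the endothelial nitric oxide synthase gene, averaged 15.1 ± 2.92 CPM in lesions and 7.52 ± 1.27 CPM in normal regions (SD, n = 3 each; edgeR adjusted p = 1.79e-04). Of the 6 endothelial markers Lyve1 rose, at 16.8 ± 3.87 CPM in lesions and 8.58 ± 0.837 CPM in normal regions (SD, n = 3 each; log2 0.97, edgeR adjusted p = 1.84e-04), and the other 5 did not pass. Their sum, most of it from Stab2, Kdr and Cdh5, was 470.2 to 491 CPM in lesions and 488 to 491 CPM in normal regions. Agmat and the polyamine-degrading acetyltransferase gene Sat1 fell, with log2 fold changes of -0.39 and -0.47.

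Carriers of glutamine, cationic amino acids, ammonium and urea were mostly lower, with 6 of 9 tested genes lower, 1 higher and 2 that did not pass (median log2 -0.84). Over all tested genes the shares were 18.4% lower and 18.7% higher. Aqp9, a channel of the hepatocyte membrane that conducts glycerol and urea, had 114 ± 7.24 CPM in lesions and 236 ± 7.76 CPM in normal regions (SD, n = 3 each; log2 -1.05, SE 0.064, edgeR adjusted p = 1.35e-10). Slc7a2, the arginine and ornithine transporter of liver, had a log2 fold change of -0.85, the amino acid transporter gene Slc38a4 one of -0.90 and the glutamate transporter gene Slc1a2 one of -1.43. Slc7a1, a transporter of the same cationic amino acids found widely outside the liver, was higher at 5.69 ± 2.06 CPM in lesions and 1.82 ± 0.123 CPM in normal regions (SD, n = 3 each; log2 1.64, SE 0.317, edgeR adjusted p = 4.14e-04). By limma on log2 FPKM, Slc7a1 did not pass with a pseudocount of 1 (log2 0.50, adjusted p = 0.0523) or 0.1 (log2 1.27, adjusted p = 0.056).

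Regulators of urea cycle genes, from hormone receptors to hepatocyte transcription factors, were lower or did not pass. Of 14 tested genes 6 fell, 0 rose and 8 did not pass by edgeR (median log2 -0.15), with 1 higher at an unadjusted p under 0.05 and 0 higher by DESeq2, limma-voom and limma on log2 FPKM. Without lesion 3, and likewise without normal region 3, 1 regulator was called higher. Among all tested genes, 18.4% were lower and 18.7% higher by edgeR with every library. Klf15, a factor that promotes amino acid breakdown in fasting liver, was lower, with a log2 fold change of -0.31 and an SE of 0.064 (edgeR adjusted p = 7.44e-04). The glucocorticoid receptor gene Nr3c1 and the gene of the cAMP-responsive factor Creb1 fell, with log2 fold changes of -0.30 and -0.53. The fatty acid sensor gene Ppara fell by 0.19 (edgeR adjusted p = 0.0114) and did not pass without lesion 1 or without normal region 1 (edgeR adjusted p = 0.0763 and 0.0548). The coactivator gene Ppargc1a fell by 0.58 (edgeR adjusted p = 0.0127) and did not pass without lesion 1 or without normal region 3 (edgeR adjusted p = 0.0757 and 0.0566). Nor did Ppargc1a pass by DESeq2 or by limma on log2 FPKM, so its call also depends on the method. Hnf4a and Cebpa, hepatocyte factors known to bind urea cycle promoters and named here after their values were seen, averaged 724 and 219 CPM in lesions and 700.1 and 223 CPM in normal regions and did not pass (edgeR adjusted p = 0.496 for Hnf4a and 0.805 for Cebpa).

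General mitochondrial genes were examined because 7 of the 10 genes act in the mitochondrion or its inner membrane. Of 18 tested genes of the mitochondrial matrix and of protein import 4 fell, 2 rose and 12 did not pass (median log2 -0.15). The shares over all tested genes were 18.4% lower and 18.7% higher, so no shift of this list is read from its counts. The fumarase gene Fh1, whose product takes up the fumarate that argininosuccinate lyase releases, had 77.2 ± 6.21 CPM in lesions and 146 ± 0.490 CPM in normal regions (SD, n = 3 each; log2 -0.91, SE 0.070, edgeR adjusted p = 3.29e-09). The import and folding genes Pmpcb, Hspe1 and Timm23 fell, with log2 fold changes of -0.52, -0.43 and -0.35. Slc25a4, an adenine nucleotide carrier, had a log2 fold change of 0.94 (edgeR adjusted p = 0.0194), with overlapping groups, and did not pass without lesion 1, lesion 2, normal region 1 or normal region 2 (edgeR adjusted p = 0.0705, 0.0873, 0.104 and 0.0816). By limma-voom and by limma on log2 FPKM, Slc25a4 also did not pass. Without lesion 3 the number of these mitochondrial genes that fell was 9, and with libraries scaled by size alone it was 11. Those settings also raised the lower calls across all genes, from 2296 to 2796 without lesion 3 and to 3615 by size alone. These counts are therefore not read as a shift of this list either. The number that rose was 0 without lesion 1, lesion 2, normal region 1 or normal region 2.

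**Figure D4:**
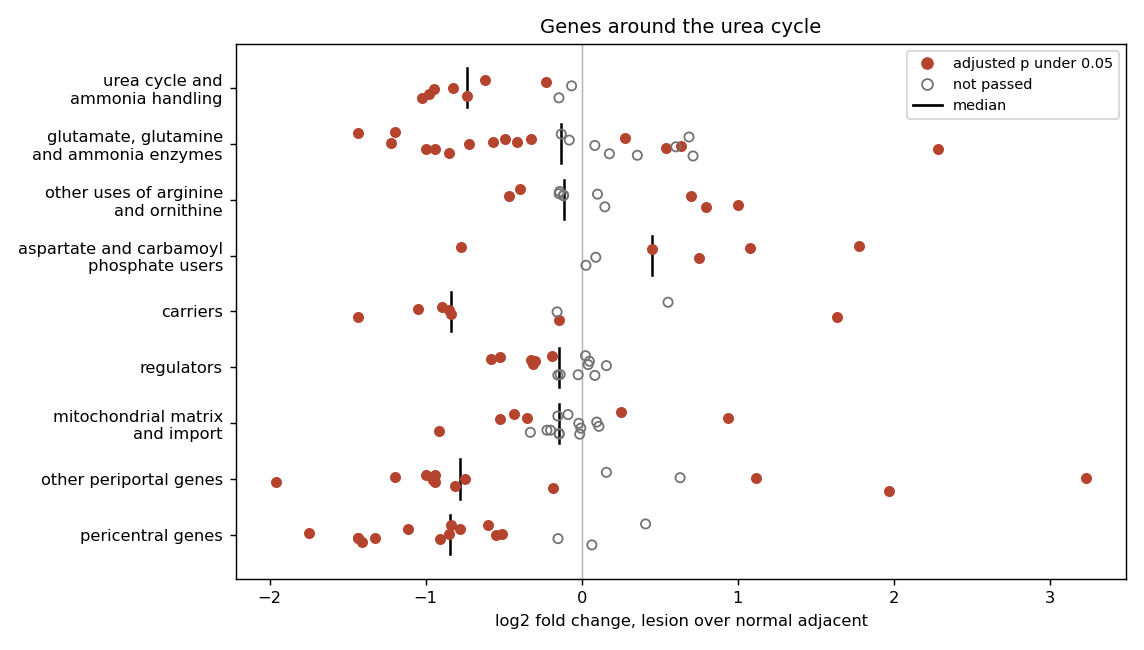
Log2 fold change, lesion over normal adjacent (horizontal axis), of every tested gene of each list (rows), filled where the edgeR adjusted p was under 0.05, with a bar at the list median. The medians of the 10 genes, the carriers and the periportal and pericentral lists lie between -0.85 and -0.74. That of the pathways using aspartate and carbamoyl phosphate, labelled as users, lies at 0.45.

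The urea cycle belongs to the portal end of the liver lobule, so genes of either end were compared. Of 14 tested periportal genes other than the 10, 9 fell, 3 rose and 2 did not pass (median log2 -0.78). For this list and the pericentral one, the shares over all tested genes were 18.4% lower and 18.7% higher. The phosphoethanolamine lyase gene Etnppl had a log2 fold change of -1.96, and Igf1, which encodes the circulating growth factor, one of -0.95. The gluconeogenic gene Pck1 averaged 1729 CPM in lesions and 3454 CPM in normal regions. The 3 that rose, named here after their values were seen, were Cdh1, Apoa4 and Hsd17b13. Their log2 fold changes were 3.23, 1.97 and 1.12 (edgeR adjusted p = 0.0032, 0.00859 and 0.0348). At the central end 13 of 16 tested genes were lower by edgeR, 3 did not pass and 0 were higher (median log2 -0.85), with 0 higher at an unadjusted p under 0.05 and 0 by DESeq2, limma-voom and limma on log2 FPKM. Without lesion 3, 1 of them was called higher. The ethanol-oxidising gene Cyp2e1 had a log2 fold change of -1.41 and Lect2, a hepatocyte cytokine gene, one of -1.33. Axin2, Rnf43 and Avpr1a, named here after their values were seen, were the 3 pericentral genes that did not pass. Lower values were found among genes of both lists, beside higher values of those 3 periportal genes. Position in the lobule was not measured in these bulk regions. Of the periportal list 3 genes, and of the pericentral list 4, also stand in another list used here.

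The genes whose values over the 6 libraries lay nearest to the mean pattern of the 9 tested genes, among 2697 others with at least 50 CPM on average, were Nipsnap1, Prdx5, Sec14l2, Aldh8a1, Pbld1 and Elovl2. Their root mean square distances were 0.0272 to 0.0352 on the log2 scale. Nipsnap1, a mitochondrial protein gene, had 77.1, 79.1 and 89.4 CPM in lesions and 128, 127 and 129.5 CPM in normal regions. Prdx5, an antioxidant peroxiredoxin gene, had 57.1, 57.0 and 61.8 CPM in lesions and 88.7, 91.6 and 88.3 CPM in normal regions. In both, lesion 3 was the highest lesion and no lesion reached a normal region. Both traits follow from choosing genes by their nearness to the mean pattern, so they are not separate results.

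Total counts were 7294716 to 7412833 in the lesion libraries and 6352898 to 6542997 in the normal libraries, with 16114 to 16407 genes holding at least 1 count in a library. The libraries carried hepatocyte markers throughout, at a summed 132800 to 161800 CPM in lesions and 74780 to 81060 CPM in normal regions. Of these 8 markers, 4 rose (Alb, Apoa1, Trf and Ahsg), 2 fell (Apob and Ttr) and 2 did not pass (Serpinc1 and Fgb). Alb, the largest of them, averaged 82270 CPM in lesions and 34160 CPM in normal regions. The sum is therefore not read as a content of hepatocytes. Markers of some other cell types also differed between the groups, which does not separate cell number from RNA per cell. All 6 Kupffer cell markers fell (sums of 360.4 to 373 CPM in lesions and 601 to 655 CPM in normal regions). Both tested cholangiocyte markers, Spp1 and Sox9, rose (sums of 129 to 169 CPM in lesions and 27.9 to 28.9 CPM in normal regions), while Krt7, Krt19, Epcam and Cftr were under 1.3 CPM in every library. Most of these sums came from Spp1, at a mean of 123.4 CPM in lesions and 17.75 CPM in normal regions. Stellate markers summed to 259.8 to 333 CPM in lesions and 288 to 291 CPM in normal regions, with 2 lower and 1 higher of 6. The erythroid sum was nearly all Alas2, at 55.1 ± 4.91 CPM in lesions and 112 ± 5.25 CPM in normal regions (SD, n = 3 each), with Hbb-bs at 0 throughout. Sums of blood cell markers were low and overlapped between the groups, with none of their tested genes passing. They were 4.83 to 6.70 CPM in lesions and 4.65 to 5.74 CPM in normal regions for T and NK cells, and 2.56 to 4.48 CPM in lesions and 3.08 to 4.08 CPM in normal regions for B cells. For neutrophils they were 8.69 to 10.4 CPM in lesions and 8.31 to 12.8 CPM in normal regions, with Ly6g at 0. The part of these shifts in the values of the 10 genes was not tested.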

How the data were processed

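Per the labels' protocols, each of the 6 libraries started from some 500 ng of total RNA, which was rid of ribosomal RNA, and was amplified by PCR over 15 cycles. The submitters' processing notes list, with neither role nor order, CASAVA 1.8, cutadapt 1.18, STAR 2.5.2b and DESeq2 1.24.0, and the mouse build mm10. What counted the reads, on which annotation and strand, and how it treated reads that map to several places, was not given in any source used here. The deposited table holds, for each Entrez gene, whole-number counts and FPKM values made by the authors and, per the file headers, the results of a DESeq2 comparison of lesion against adjacent tissue. That comparison holds a mean normalized count (a signal), a log2 fold change with its SE, a test score and p-values, all by the authors. No molecular identifiers are named, so counts are of reads and the floor of 3 counts covers counting error only.

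Genes kept by edgeR's filter were tested with edgeR 4.0.16 (R 4.3.3, robust quasi-likelihood, TMM scaling, group as the only term, two-sided, Benjamini-Hochberg adjustment over all 12506 genes, threshold 0.05). Each SE was obtained from the log2 fold change and the F statistic (their ratio after taking the root of F). Levels are CPM or deposited FPKM per library, with SD over 3 libraries. The fit was tested on simulated data. Sequences and their identity come from GENCODE M21 transcripts, and positions from RefSeq for GRCm38.p6, matched on Entrez identifiers. Ratios with Ass1 were planned and could not be computed, and 2 ratios were added after the data were seen.

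The 10 genes, the lists around them and the markers were chosen with earlier results of these data known. Genes named are the 10, up to 5 passing genes with the lowest p of each list, and the 6 nearest patterns; others are said to be outside this rule, and cell type markers are given with their list. Alternatives were other scalings, filters and thresholds, leaving out small and ribosomal RNA, DESeq2 1.42.0, limma 3.58.1 with voom, a non-robust fit, limma on log2 FPKM with pseudocounts of 1 and 0.1, a replicate block, and each library or replicate number left out.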

Additional observations from a re-analysis of the deposited data

How the results depend on the processing

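Cps1, Otc, Asl, Slc25a15, Slc25a13 and Gls2 were lower and past the threshold under each of the 22 alternatives run on single genes, with log2 fold changes of -1.16 to -0.97 for Cps1 and -0.76 to -0.58 for Asl. Between 6 and 8 of the 9 tested genes were called lower and 0 higher under every alternative, and no result changed direction among those that passed. Glud1 did not pass with unfiltered FPKM (adjusted p = 0.059), without lesion 1 (adjusted p = 0.0629) or without replicate 1 or 2 of both groups (adjusted p = 0.121 and 0.156). Arg1 ranged from -0.25 to 0.03 on the log2 scale. With libraries scaled by size alone the median of all tested genes shifted to -0.14, and across all genes 3615 were called lower and 1474 higher, against 2296 lower and 2340 higher with TMM scaling. That scaling gave a median of -0.88 for the 9 genes and a summed level of 53.1% of normal. An adjusted p under 0.01 gave 1548 higher calls. DESeq2 called 1661 lower and 1761 higher. Leaving out libraries or replicate numbers gave 1352 to 2796 lower and 1349 to 2798 higher calls. With the replicate block 2233 genes were called lower and 2293 higher, and the same count of 7 genes of the cycle was lower. The replicate numbers were not shown to pair samples, since same-numbered regions deviated with correlations of 0.0112, -0.0205 and -0.0219.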

Other observations

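Promoter windows of RefSeq (250 bases before to 50 after the start, GRCm38.p6) were given for 6 of the 10 genes (Ass1, Slc25a13, Slc25a15, Nags, Glud1 and Otc), 7 windows in all. Searched on both strands, none held TTGCNNAA (a C/EBP core), TGACGTCA, TGTTCT, CAAAGTCCA or TATAAA. The shares of all 32851 windows that held each were 10.8%, 1.79%, 19.0%, 0.475% and 13.6%, in that order. These letters being absent from these windows says nothing of the factors.

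Related enzymes outside the cycle gave values on either side. The mitochondrial aminotransferase gene Got2 averaged 495 CPM in lesions and 467 CPM in normal regions and did not pass (edgeR adjusted p = 0.239), while cytosolic Got1 fell. Aldh18a1, which starts proline and ornithine synthesis from glutamate, averaged 19.0 CPM in lesions and 3.89 CPM in normal regions (log2 2.28, edgeR adjusted p = 4.84e-08), while Oat and Prodh, which degrade ornithine and proline, fell. These genes were picked after their values were seen.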
